A study of Equus caballus with 22 samples.

Results

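Non-pregnant endometrium, the glandular lining of the uterus, was compared between day 12 and day 8 in warmblood mares. The comparison used the 11 arrays of the 22 in the series whose titles give day 12, non-pregnant (6 mares) or day 8, non-pregnant (5 mares). At both days the labels call these the control samples of mares that also gave a pregnant sample. The tissue of each was a biopsy, its total RNA was copied to Cy3-labelled cRNA, and each sample was read on a 1-colour Agilent horse array. The labels name no agent given to the mares and no event from which the days are counted. Mares 1, 2, 4, 5 and 6 have a number at both days and mare 3 only at day 12, and the groups were compared as unpaired. Nothing in the labels says that an equal number means the same animal. The p-values measure the spread between these biopsies.

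After ovulation the corpus luteum secretes progesterone, and the endometrium turns from the proliferation driven by oestrogen to gland secretion. In the mare the secretion feeds an embryo that stays free in the uterine lumen for a long time, and uterocalin (P19) is a classical carrier protein of that secretion. When no embryo is present the same endometrium later releases prostaglandin F, which ends the life of the corpus luteum. Steroid receptors, enzymes that activate or remove steroids, prostaglandin genes, secreted carriers and transporters are therefore the gene groups most often followed in this tissue.

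Day cannot be told apart from array batch here. The day 12 arrays lay on 4 slides, were scanned on 3 scan days and were read with 1 version of the scanner software, whereas the day 8 arrays lay on 3 other slides, were scanned on 2 other scan days and were read with another version. Every difference between the days below is also a difference between these sets. The 75th percentile of the spot intensity, to which each array was scaled, was 654 to 1849 units at day 12 and 577 to 1435 at day 8. Between 74.2% and 92.9% of the spots were well above background at day 12, and 79.9% to 87.1% at day 8. Arrays correlated at 0.951 to 0.982 within day 12, at 0.961 to 0.988 within day 8 and at 0.919 to 0.978 between the days, over probes.

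Levels are log2 intensities with the 75th percentile of the array set to 0, so that a difference of 1 means a doubling of intensity. They compare the same probe between arrays and not different genes with each other. The first principal component held 32.7% of the variance and separated the days, with scores of -99.2 to -1.03 at day 12 and 29.3 to 74.8 at day 8. The arrays of mare 3 at day 12 and mare 1 at day 8 lay at its opposite ends, and the array of mare 1 at day 8 also had the highest score on the second component (70.8). Of the 10 spike-in probes, whose RNA was added in the laboratory, 9 read lowest on that array. Spike-in differences between the days ran from -0.03 to 1.24 with it and from -0.60 to 0.69 without it. Of the 10 probes, 9 were higher at day 12 with that array and 8 without it. The main counts, and the differences of some genes, are therefore also given below without these arrays.

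**Figure D1:**
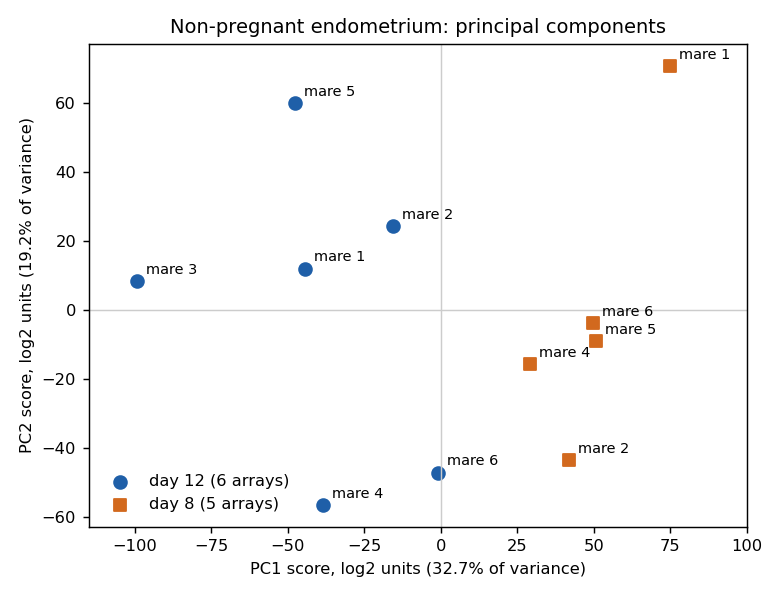
Scores of the 11 non-pregnant arrays on the first (32.7% of the variance) and second (19.2%) principal component of 31489 probes, in log2 units, with day 12 arrays as circles and day 8 arrays as squares labelled by mare number. The days separate along the first component, with mare 3 of day 12 at -99.2 and mare 1 of day 8 at 74.8.

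In limma's moderated test with Benjamini-Hochberg adjustment, 2936 of 37172 probes (7.9%) passed an adjusted p of 0.05. Of these, 1033 were higher at day 12 (2.78% of the probes tested) and 1903 were lower (5.12%). The share of calls that were higher, 35.2%, was 47.1% when the 75th percentile was taken over probes above background on every array, and 25.0% with normexp background correction. It was 11.4% with the scan day as a random block and 3.9% in the authors' deposited value table, fitted without centring the arrays. Without the day 12 array of mare 3 and the day 8 array of mare 1 it was 48.3%. Without single arrays it ran from 24.5% (without mare 5 of day 12) to 46.0% (without mare 1 of day 8). At an unadjusted p under 0.05 there were 10036 probes. Groups without overlap were found for 2782 probes (7.48%), of which 1066 were higher (2.87%) and 1716 lower (4.62%).

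A gene symbol could be given to few probes. Of the 591 genes with a symbol and a probe that passed the filter on dim signals, 54 differed between the days (9.14%). At day 12, 9 of them were higher (1.52%) and 45 were lower (7.61%). In these bulk biopsies fewer cells of a type and less RNA per cell cannot be told apart. The median difference was -0.14 over the 591 genes and -0.01 over all probes. Groups without overlap were found for 53 of the 591 genes (8.97%), and 42 of the 53 were among the 54. Of the 54, 33 differed by more than 2-fold. In all 54 the means of the day 12 scan days lay apart from those of the day 8 scan days. The 54 were picked for a small p on the same values, and the share over the other genes was not counted. This separation is therefore no test of the scan day. When each array was left out in turn, 15 genes passed in all 11 fits. They were PSMD4, COPS7A and GM2A among the higher genes and SFTPA1, DENND1C, SV2A, ITGA9, MSTN, IL10, HSPA8, HSD11B2, GAST, RPSA, HAPSTR2 and SLC2A4 among the lower. These 15 also passed with the slide as a random block, together with VCF1, RPRD1A, NFYB, OAS3, YWHAZ, SLC2A5 and LOC100033916, which makes 22. With the scan day as a random block 5 passed, namely PSMD4, COPS7A, MSTN, SFTPA1 and SV2A. The genes outside the 15 lost the call in 1 or more of the 11 fits without an array. COX6C and GBE1 passed in only 1 of these fits.

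With normexp background correction 16 of the 54 genes no longer passed. Those whose differences also shrank by more than 1.5 times included ADAMTS4, CRISPLD1, IFND2, IL10, IL12A, NR5A2, RPRD1A and SFTPA1, at -0.59, -0.38, -0.61, -0.61, -0.34, 0.23, -0.42 and -0.62. COX6C, GBE1, PRKAB2, PRKAG3, PRND, SLC16A3 and VCF1 lost the call without such a shift. Quantile normalisation ended the call for 7 genes, namely COX6C (-0.33), EEF1A1 (-0.27), GCNT1 (-0.38), HMGB1 (-0.27), LOC100033916 (-0.60), LOC100051036 (-0.15) and RPL5 (-0.23). ECATH-3, HSPA8 and RPSA still passed with it, at smaller differences of -0.50, -0.61 and -0.53. Of the 21 genes with several probes, 9 no longer passed on the mean over their probes, ADAMTS4 at -0.77, EEF1A1 at -0.52, HMGB1 at -0.09, LOC100051036 at -0.43, MSTN at -0.99, RPSA at -0.40 and TLR4 at -0.88 among them, with CIAO2A and NR5A2 the others. NFYC passed on that mean with -0.78 in place of -1.72. Of the 54, 11 passed in the authors' deposited value table, which was fitted as deposited, without centring the arrays. There the differences of CRISPLD1, IL12A, NR5A2 and SFTPA1 were smaller by more than 1.5 times, at -0.61, -0.51, 0.48 and -0.84. Without the filter on dim signals 13 lost the call, and with the 75th percentile over probes above background on every array 5 did, with no shift of that size in either.

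Among the 45 lower genes, 27 read highest on the day 8 array of mare 1, 23 read lowest on the day 12 array of mare 3, and 20 did both. Without these 2 arrays 63 named genes passed, 39 of the 54 among them, and all 54 kept their direction. The other 15 then had an adjusted p of 0.053 to 0.102. Among them were the higher genes RBP4, NR5A2 and GBE1 and the lower genes COX6C, CRISPLD1, ECATH-2, EEF1A1, GPCPD1, HMGB1, IFND2, IL12A, PRKAG3, PRND and RAVER1. The differences of TLR4, RAVER1, SLC16A3 and SUZ12 shrank by more than 1.5 times, to -1.20, -1.06, -0.77 and -1.43. Smaller shifts left GAST at -2.52, SV2A at -2.11, NFYC at -1.22 and DENND1C at -1.41. Some other differences did not shrink, such as that of HSD11B2, at -1.53.

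**Figure D2:**
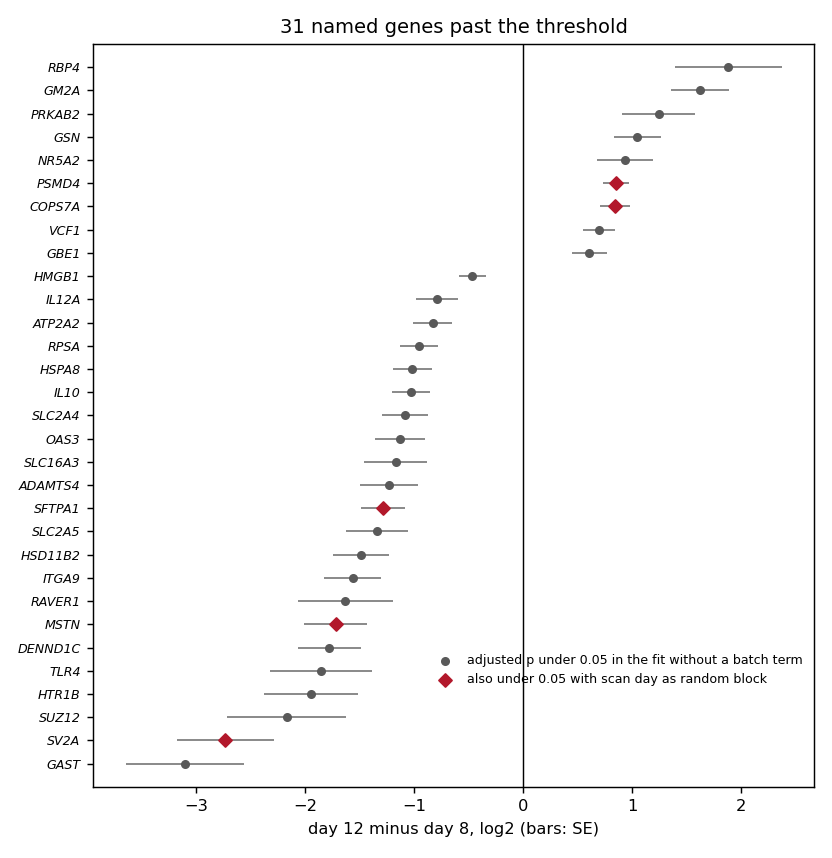
Difference between day 12 and day 8 on the log2 scale for 31 of the 54 named genes past the threshold, those with the smallest p in each direction and the members of gene lists, with bars for the standard error; diamonds mark genes that also passed with the scan day as a random block. The 9 higher genes lie between 0.61 and 1.88 and the 22 lower genes shown between -3.10 and -0.47, and 5 genes are diamonds.

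The smallest p-values among the higher genes belonged to PSMD4 and COPS7A, genes of the ubiquitin and proteasome system. PSMD4 encodes the ubiquitin receptor of the proteasome cap. Its level was -0.76, -0.87, -0.92, -0.85 and -0.85 on the day 8 arrays and -0.13 to 0.23 (median -0.03) on the day 12 arrays. All day 12 arrays lay above all day 8 arrays, and the difference was 0.85 ± 0.12 (SE, n = 6 and 5 mares, adjusted p = 0.00392), or 1.80-fold. COPS7A encodes a subunit of the COP9 signalosome, a complex that removes the NEDD8 tag from cullin ubiquitin ligases. Its day 8 levels of -3.21, -3.16, -3.15, -3.25 and -3.18 lay within a narrow band, and the day 12 arrays ran -2.69 to -2.12 (median -2.31). The difference was 0.84 ± 0.13 (adjusted p = 0.00749), again without overlap. Of the 5 measured genes of the list of proteasome and COP9 signalosome genes, 2 were higher, none was lower, and the median difference was 0.17 against -0.14 over all named genes. The proteasome subunit PSMB2 differed by -0.47 ± 0.14 (adjusted p = 0.0601), COPS9 by 0.08 ± 0.12 (adjusted p = 0.716) and the ubiquitin gene UBB by 0.17 ± 0.14 (adjusted p = 0.461), so that the list did not move as one.

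The largest increases among the named genes were those of RBP4 and GM2A, members of the list of secreted proteins of uterine fluid. RBP4, the carrier of retinol, read 2.08, 1.63, 1.77, 0.96 and 1.26 at day 8 and 1.83 to 5.01 (median 3.37) at day 12. The lowest day 12 array lay within the day 8 range. The difference was 1.88 ± 0.49 (adjusted p = 0.0398), or 3.68-fold, all 4 probes of the gene were higher (1.75 to 2.09), and 2 of them passed. GM2A, the lysosomal activator protein of ganglioside breakdown, was at -0.97, -0.54, -0.60, -1.39 and -1.46 at day 8 and ran -0.03 to 1.31 (median 0.69) at day 12. No day 12 array fell into the day 8 range, and the difference was 1.62 ± 0.27 (adjusted p = 0.00845), or 3.08-fold. These were 2 of the 11 measured members of the list of secreted proteins, whose median difference was 0.00. Uterocalin (P19), with a level of 7.72 to 8.24 at day 8 and 6.38 to 7.72 at day 12, differed by -0.58 ± 0.24 (adjusted p = 0.154). Values for the others named here were 0.27 ± 0.27 (adjusted p = 0.555) for clusterin (CLU), 0.58 ± 0.20 (adjusted p = 0.0858) for the secreted glutathione peroxidase GPX3 and 0.52 ± 0.15 (adjusted p = 0.0598) for beta-2 microglobulin (B2M). GPX3 has 6 probes, all of them higher at day 12 (0.53 to 0.75), and 2 passed although the probe that stands for the gene did not.

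Gelsolin (GSN), which severs and caps actin filaments, was the member of the actin list that changed. Its day 8 levels were 3.43, 3.82, 3.51, 3.76 and 3.02, and the 5 day 12 arrays that measured it ran 4.27 to 5.16 (median 4.45), since the spot of mare 5 was marked as an outlier and left out. No day 12 array reached into the day 8 range, both probes passed (1.05 and 1.25), and the difference was 1.05 ± 0.22 (adjusted p = 0.0212). The other 7 measured members of that list did not pass, and the median of the list was -0.07. For annexin A2 (ANXA2), a membrane-binding protein, the probe with the highest level gave -0.08 ± 0.20 (adjusted p = 0.83), while 1 of its other probes passed at 0.90. The probes of this gene therefore disagree.

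NR5A2, an orphan nuclear receptor of steroidogenic and gut tissues, was the steroid-related receptor that was higher at day 12. Its levels were low, -5.48, -6.12, -6.26, -5.46 and -5.89 at day 8 and -5.33 to -4.20 (median -5.09) at day 12. The probe that stands for the gene was flagged well above background on all arrays. The groups did not overlap, and the difference was 0.94 ± 0.26 (adjusted p = 0.0461). NR5A2 passed in only 2 of the 11 fits that left out 1 array. With normexp background correction it differed by 0.23 and did not pass. Its second probe gave 0.57 and did not pass. Oestrogen receptor alpha (ESR1) differed by -0.68 ± 0.25 (adjusted p = 0.108) and the progesterone receptor membrane component PGRMC1 by -0.43 ± 0.18 (adjusted p = 0.158), and the related receptor NR5A1 by 0.51 ± 0.33 (adjusted p = 0.346). ESR1 levels ran from 4.44 to 6.02 at day 12 and from 5.50 to 5.98 at day 8, so that the day 12 arrays covered the day 8 range. In PGRMC1 a second probe passed, at -0.87. The 4 measured members had a median difference of 0.04.

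The other higher genes were PRKAB2, GBE1 and VCF1. PRKAB2, a regulatory beta subunit of the AMP-activated kinase, was at -2.03, -3.63, -3.10, -3.28 and -3.09 at day 8, with mare 1 above the rest, and ran -2.64 to -0.86 (median -1.68) at day 12. The groups overlapped, and the difference was 1.24 ± 0.34 (adjusted p = 0.0449). GBE1, the branching enzyme of glycogen synthesis, read -3.11, -3.21, -3.07, -3.10 and -2.99 at day 8 and -2.98 to -2.16 (median -2.45) at day 12. The groups were separated by a narrow gap, and the difference was 0.61 ± 0.16 (adjusted p = 0.043). VCF1, a cofactor of the ATPase VCP, read -2.86, -2.85, -3.28, -3.06 and -3.21 and -2.53 to -2.0 (median -2.40) at the respective days without overlap, and differed by 0.69 ± 0.15 (adjusted p = 0.0212). In the opposite direction, PRKAG3, a gamma subunit of the same kinase, was lower at day 12 by 1.83-fold, with a difference of -0.87 ± 0.24 (adjusted p = 0.0461).

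**Figure D3:**
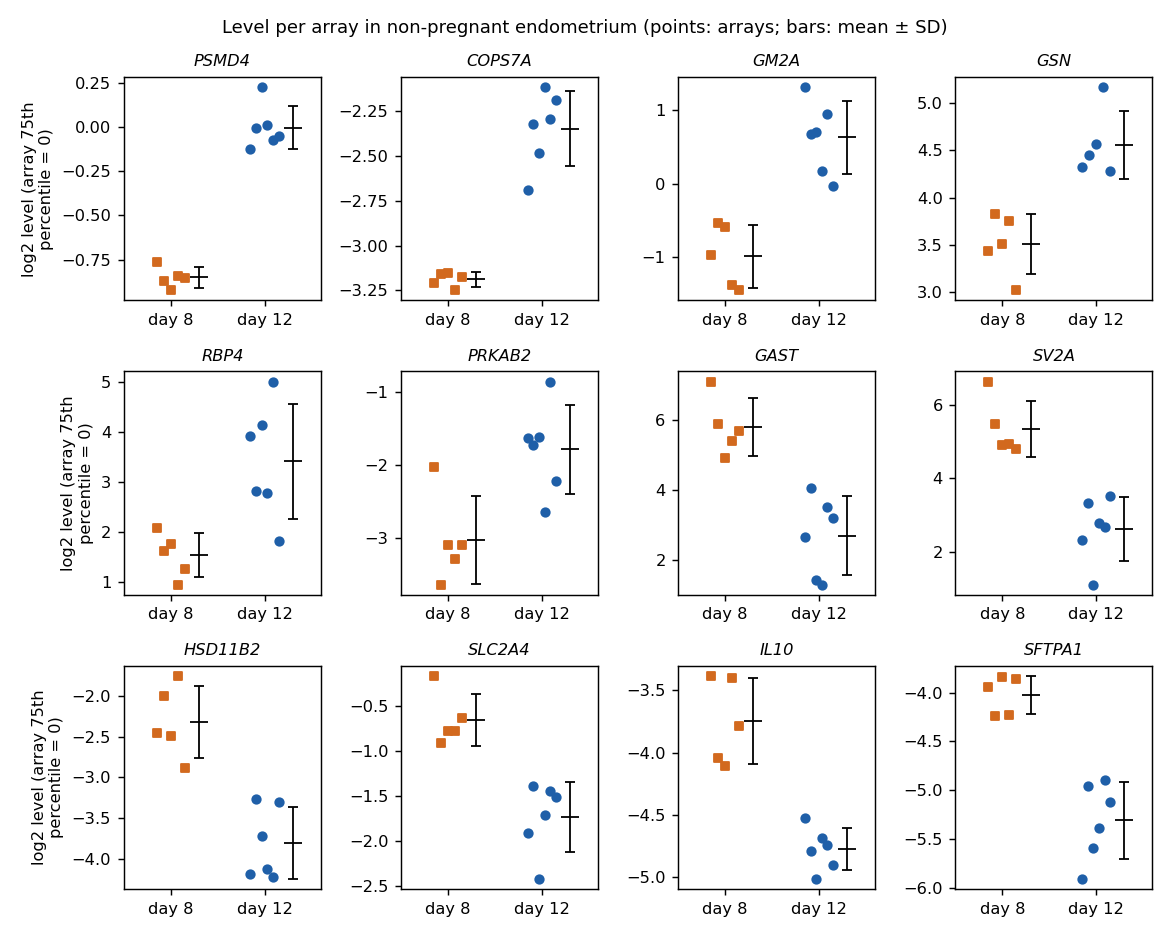
Level on each array (log2, 75th percentile of the array at 0) of 12 genes that passed, with squares for the 5 day 8 arrays, circles for the day 12 arrays and bars for mean ± SD; each panel has its own axis. PSMD4, COPS7A, GM2A, GSN, RBP4 and PRKAB2 are higher at day 12 and GAST, SV2A, HSD11B2, SLC2A4, IL10 and SFTPA1 lower, and the groups overlap in RBP4 and PRKAB2 only.

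The largest decreases among the named genes were those of GAST and SV2A, which belong to the neuroendocrine and peptide hormone genes. GAST, the gene of the stomach hormone gastrin, read 7.11, 5.91, 4.92, 5.42 and 5.69 at day 8 and 1.31 to 4.07 (median 2.94) at day 12. All day 12 arrays lay below all day 8 arrays, and the difference was -3.10 ± 0.54 (adjusted p = 0.00985), so that day 8 was 8.59-fold above day 12. SV2A, a glycoprotein of synaptic vesicles, was at 6.63, 5.48, 4.89, 4.92 and 4.80 at day 8 and ran 1.1 to 3.52 (median 2.72) at day 12. The gap between the groups was wider than 1 log2 unit, and the difference was -2.73 ± 0.45 (adjusted p = 0.00814), or 6.63-fold higher at day 8. HTR1B, a serotonin receptor, was at 0.11, -1.93, -2.70, -1.82 and -1.98 at day 8, with mare 1 far above the others, and ran -4.32 to -2.88 (median -3.51) at day 12. The groups were separate, the difference was -1.94 ± 0.43 (adjusted p = 0.0242), and without the day 12 array of mare 3 and the day 8 array of mare 1 it was -1.36. Myostatin (MSTN), a growth inhibitor of the TGF-beta family, read 0.50, -0.19, -0.27, -0.39 and -0.36 at day 8 and -2.74 to -1.21 (median -1.73) at day 12. The groups were separate and the difference was -1.72 ± 0.29 (adjusted p = 0.00895), while a second probe gave -0.26 and did not pass.

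Of the 14 measured genes of the neuroendocrine and peptide hormone list, these 4 were lower and none was higher, with a median of -0.44. Among all named genes 7.61% were lower, with a median of -0.14. Chromogranin A (CHGA), the classical protein of endocrine granules, differed by 0.93 ± 1.03 (adjusted p = 0.597) and ranged from -7.02 to 0.07 at day 12 alone. UCHL1, an abundant enzyme of neurons and endocrine cells, differed by 0.51 ± 0.30 (adjusted p = 0.293). SV2A is thus the single passing gene of the 3 measured markers of nerve and endocrine cells. The summed level of the markers ran from 1.19 to 3.53 at day 12 and from 4.81 to 6.63 at day 8. These ranges nearly equal those of SV2A alone, given above, so the sum does not describe CHGA and UCHL1. Both differed in the opposite direction to SV2A without passing, and the median difference of the 3 markers was 0.51. The common alpha subunit of the glycoprotein hormones (CGA) differed by -1.04 ± 0.32 (adjusted p = 0.0638).

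Genes of steroid metabolism gave 1 call in 12 measured members. HSD11B2, which inactivates cortisol to cortisone, read -2.45, -2.0, -2.50, -1.75 and -2.88 at day 8 and -4.23 to -3.27 (median -3.92) at day 12. The groups were clearly separate, and the difference was -1.48 ± 0.26 (adjusted p = 0.00973), or 2.80-fold higher at day 8. The median of the list was -0.44 against -0.14 over all named genes. Differences of -1.13 ± 0.40 in HSD3B2, -0.90 ± 0.32 (adjusted p = 0.102) in aromatase (CYP19A1) and -0.62 ± 0.20 (adjusted p = 0.0783) in the oestradiol-forming enzyme HSD17B1 did not pass. SULT1E1, which sulphates oestrogens, differed by -0.01 ± 0.33 (adjusted p = 0.994), with mare 3 well above the other day 12 arrays.

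None of the 9 measured prostaglandin genes passed. Their median difference was -0.22. The inducible cyclooxygenase PTGS2 ran from 0.08 to 1.6 at day 12 and from 1.06 to 2.24 at day 8, and differed by -0.96 ± 0.30 (adjusted p = 0.0681). All 3 of its probes were lower at day 12 (-1.01 to -0.66), and 1 passed. The prostaglandin E synthase PTGES differed by 0.40 ± 0.20 (adjusted p = 0.23) and the prostaglandin F receptor PTGFR by -0.13 ± 0.34 (adjusted p = 0.836). PLA2G2A, a secreted phospholipase that releases fatty acids from membranes, differed by -1.36 ± 0.50 (adjusted p = 0.111), and 3 of its 5 probes passed, all lower at day 12 (-1.87 to -1.36).

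Of the sugar and lactate transporters, 3 were lower at day 12. SLC2A4, the insulin-regulated glucose carrier, read -0.16, -0.91, -0.77, -0.78 and -0.63 at day 8 and -2.42 to -1.39 (median -1.61) at day 12. The groups did not overlap, and the difference was -1.08 ± 0.21 (adjusted p = 0.0165). SLC2A5, the fructose carrier, was at -3.16, -2.69, -2.83, -1.85 and -2.41 and ran -4.49 to -3.34 (median -4.0), respectively. Day 8 was 2.53-fold above day 12 without overlap, with a difference of -1.34 ± 0.28 (adjusted p = 0.0209), and both probes passed. SLC16A3, which exports lactate, was at 0.15, -1.12, -1.35, -1.14 and -1.08 at day 8 and ran -2.78 to -1.67 (median -2.0) at day 12. Mare 1 stood above the other day 8 arrays, which alone were all above the day 12 arrays too, and the difference was -1.17 ± 0.29 (adjusted p = 0.0336). In all, 3 of the 7 measured members of the list were lower and none was higher, with a median of -0.69. Over all named genes 7.61% were lower and the median was -0.14. The related lactate carrier SLC16A1 differed by -0.69 ± 0.21 (adjusted p = 0.0622) and the sodium-driven glucose carrier SLC5A1 by -0.11 ± 0.36 (adjusted p = 0.869).

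Of the 5 measured ion transport genes, 1 was lower at day 12 and none was higher. ATP2A2, the calcium pump of the endoplasmic reticulum, read 1.46, 2.18, 2.10, 2.46 and 2.18 at day 8 and 1.13 to 1.46 (median 1.16) at day 12. The groups overlapped by a narrow margin, at mare 1 of day 8, and the difference was -0.83 ± 0.18 (adjusted p = 0.0212). The chloride channel CFTR differed by -0.91 ± 0.27 (adjusted p = 0.0564) and the calcium-binding protein S100G by -1.25 ± 0.46 (adjusted p = 0.108). The median of the list was -0.83, against -0.14 over all named genes.

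The cytokine genes that passed were IL10 and IL12A. IL10, an anti-inflammatory cytokine, read -3.38, -4.04, -4.11, -3.40 and -3.79 at day 8 and -5.01 to -4.53 (median -4.76) at day 12. Both groups were separate, 4 of its 5 probes passed (-1.03 to -0.54), and the difference was -1.03 ± 0.17 (adjusted p = 0.00905). IL12A, a subunit of interleukin 12 that promotes T helper responses, was at -4.08, -4.67, -4.38, -4.24 and -4.10 and ran -5.64 to -4.63 (median -5.08). The groups overlapped slightly, all 5 probes passed (-1.0 to -0.70), and the difference was -0.79 ± 0.19 (adjusted p = 0.0326). These were 2 of the 23 measured chemokine, cytokine and receptor genes, which had a median of -0.14, equal to that of all named genes. The eosinophil chemokine CCL11 differed by -1.33 ± 0.39 (adjusted p = 0.0596) without overlap but did not pass, and its day 8 array of mare 1 stood more than 1 log2 unit above the other day 8 arrays.

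TLR4, the receptor of bacterial lipopolysaccharide, read 4.69, 2.57, 1.70, 2.20 and 1.77 at day 8 and 0.08 to 1.02 (median 0.87) at day 12. Mare 1 lay far above the other day 8 arrays, which were still above every day 12 array, and the difference was -1.85 ± 0.47 (adjusted p = 0.0357). Its second probe gave 0.10, so the probes disagree in sign. Among the other 11 measured genes of the interleukin 1 and toll-like receptor list none passed. The TLR4 partners LY96 and CD14 differed by -0.57 ± 0.22 (adjusted p = 0.119) and 0.47 ± 0.26 (adjusted p = 0.262), and TLR2 by -0.41 ± 0.16 (adjusted p = 0.127). SFTPA1, the collectin surfactant protein A, read -3.95, -4.24, -3.84, -4.23 and -3.86 at day 8 and -5.91 to -4.89 (median -5.25) at day 12. It was lower without overlap, with a difference of -1.29 ± 0.20 (adjusted p = 0.00656), and 4 of its 5 probes passed. It was 1 of the 2 measured genes of the antimicrobial list, whose median was -1.32. Both equine cathelicidins with a symbol, antimicrobial peptides of neutrophils, were also lower, ECATH-3 at -1.21 ± 0.26 (adjusted p = 0.021) with all 3 probes past the threshold and ECATH-2 at -1.16 ± 0.30 (adjusted p = 0.0397) with 4 of 5. They are named outside the fixed lists. ECATH-2 passed in only 3 of the 11 fits that left out 1 array, and ECATH-3 in 10. Whether their probes read these genes alone was not tested. With quantile normalisation the difference of ECATH-3 was smaller, at -0.50, and still passed.

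Interferon response genes did not move together. OAS3, an antiviral enzyme that senses double-stranded RNA, read -1.51, -2.07, -2.09, -2.13 and -1.91 at day 8 and -3.82 to -2.74 (median -2.82) at day 12. It was lower without overlap, with a difference of -1.13 ± 0.23 (adjusted p = 0.0173), and it was the 1 gene of 8 measured that passed. OAS1, OAS2 and MX1 differed by 0.30 ± 0.27 (adjusted p = 0.496), 0.45 ± 0.21 (adjusted p = 0.201) and 0.73 ± 0.31 (adjusted p = 0.163), on the other side of 0, and the median of the list was 0.13. The interferon delta gene IFND2 was lower too, at -1.10 ± 0.25 (adjusted p = 0.026). In the 3 measured antigen presentation genes none passed, with a median of 0.52.

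ADAMTS4, a protease that cleaves proteoglycans of the matrix, was the member of 16 measured matrix genes that changed. Its levels were -3.08, -4.13, -3.69, -3.63 and -3.66 at day 8 and -5.71 to -4.32 (median -4.75) at day 12. It was lower at day 12 without overlap, with a difference of -1.23 ± 0.27 (adjusted p = 0.0215), and its second probe gave -0.31. With normexp background correction ADAMTS4 differed by -0.59, and on the mean over its probes by -0.77, and it passed in neither. The median of the list was -0.24. ITGA9, an integrin subunit that is not on the list, read -2.47, -1.89, -1.76, -3.06 and -1.78 at day 8 and -4.28 to -3.31 (median -3.80) at day 12. The groups were separate, and the difference was -1.56 ± 0.26 (adjusted p = 0.00888). None of the 10 vascular genes and none of the 9 growth factor genes passed, and their medians were 0.14 and 0.11. Within these lists VEGFA, the main growth factor of blood vessels, differed by 0.25 ± 0.20 (adjusted p = 0.439) on the probe that stands for the gene, and 1 of its 10 probes passed at 0.74.

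Regulators of chromatin and RNA gave 3 lower genes in 6 measured, against 7.61% lower among all named genes. SUZ12, a core subunit of Polycomb repressive complexes, was at 5.09, 2.90, 1.58, 2.37 and 1.98 at day 8, with mare 1 far above the others, and ran -0.16 to 1.42 (median 0.49) at day 12. The groups were separate by a small margin, and the difference was -2.17 ± 0.55 (adjusted p = 0.0357). RAVER1, a cofactor of splicing regulation, read 7.63, 6.01, 5.13, 5.80 and 5.63 at day 8 and 3.57 to 5.51 (median 4.32) at day 12. The groups overlapped, although all 5 probes passed (-2.12 to -1.53), and the difference was -1.63 ± 0.43 (adjusted p = 0.0426). HMGB1, an abundant DNA-bending chromatin protein, was at 4.32, 4.13, 3.93, 4.32 and 4.21 and ran 3.62 to 3.84 (median 3.71), which left the groups just apart. It differed by -0.47 ± 0.12 (adjusted p = 0.0417), with 1 of its 3 probes past the threshold and another on the other side of 0, at 0.15. The median of the list was -0.45, against -0.14 over all named genes. Of the transcription factor subunits NFYB and NFYC, which bind CCAAT boxes, both were lower, at -0.81 ± 0.16 (adjusted p = 0.0171) and -1.72 ± 0.41 (adjusted p = 0.0291), and 1 of the 4 probes of NFYC passed.

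The constitutive heat shock protein HSPA8 and 3 genes of translation, not members of a list together, were lower as well. HSPA8 read 5.87, 5.90, 5.65, 6.13 and 6.42 at day 8 and 4.74 to 5.36 (median 4.92) at day 12. Its groups did not overlap, and the difference was -1.02 ± 0.18 (adjusted p = 0.0097). It was the 1 of 3 measured stress genes that passed, and HSP90AB1 differed by -0.51 ± 0.23 (adjusted p = 0.181). RPSA, a ribosomal protein also known as the laminin receptor, read 6.46, 5.72, 5.86, 6.03 and 5.95 at day 8 and 4.69 to 5.28 (median 5.10) at day 12. It was lower without overlap, with a difference of -0.95 ± 0.17 (adjusted p = 0.0116), while 2 of its 3 probes did not pass (range -0.95 to -0.01). RPL5, of the large ribosomal subunit, was 1.91-fold higher at day 8 (adjusted p = 0.0217). EEF1A1, the elongation factor that brings aminoacyl-tRNA to the ribosome, was 1.97-fold higher (adjusted p = 0.0285), and 1 of its 3 probes passed. With quantile normalisation RPL5 and EEF1A1 differed by -0.23 and -0.27 and did not pass. On the mean over its probes EEF1A1 was at -0.52 and did not pass either. Genes of this kind have many near-identical copies, and probe sequences were not used here, so that signal from such copies was not tested.

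DENND1C, an exchange factor of Rab GTPases in membrane traffic, was among the lower genes outside the lists with the smallest p. It read 1.33, -0.26, -0.42, -0.02 and -0.04 at day 8, with mare 1 far above the others, and -1.99 to -1.38 (median -1.58) at day 12. The groups were clearly separate, and the difference was -1.78 ± 0.29 (adjusted p = 0.00779). LOC100033916, for which the RefSeq table gives the synonym SCGB1A1 of a small secreted protein once named uteroglobin, was lower, at -1.33 ± 0.28 (adjusted p = 0.02), and all 8 of its probes passed (-1.40 to -1.1). A further 13 lower genes outside the lists differed by -1.20 to -0.60. Examples are the signalling adaptor YWHAZ at -1.14 ± 0.22 (adjusted p = 0.0162), the O-glycan branching enzyme GCNT1 at -1.06 ± 0.24 (adjusted p = 0.0271), the phagosome metal transporter SLC11A1 at -0.68 ± 0.17 (adjusted p = 0.0362) and COX6C, a subunit of cytochrome oxidase, at -0.61 ± 0.17 (adjusted p = 0.0471) with all 3 probes past the threshold. COX6C passed in only 1 of the 11 fits that left out 1 array, and not with the slide as a random block.

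**Figure D4:**
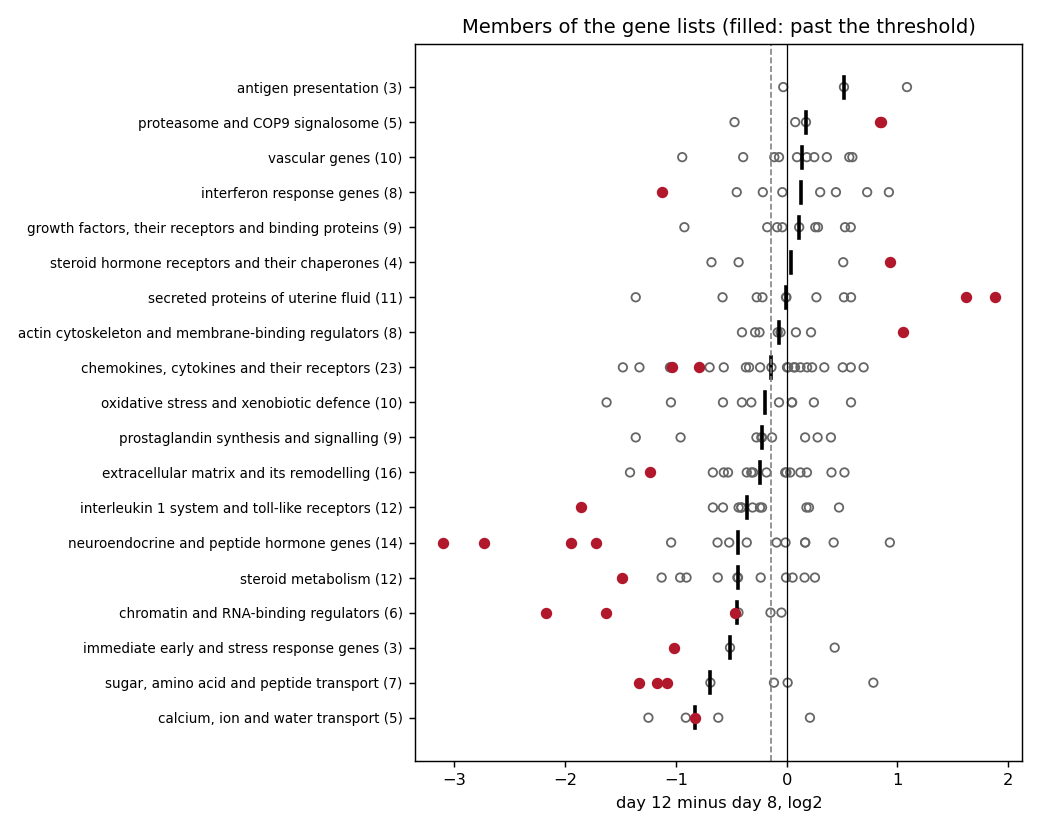
Difference between day 12 and day 8 (log2) for the measured members of each gene list with at least 3 of them, the number measured in brackets; filled points passed the threshold, thick bars mark the list median and the dashed line the median of all 591 named genes (-0.14). The neuroendocrine list holds the lowest values, down to -3.10, and the secreted proteins the highest, up to 1.88, and medians of the lists shown run from -0.83 to 0.52.

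Over the 21 pathway lists, 171 genes were measured, and 25 of the 54 genes that passed were members. Among all 591 named genes 9.14% passed. Lists had been chosen with earlier results of these data known, so these counts are a description. In the lists of oxidative stress and xenobiotic defence none of 10 measured genes passed, with a median of -0.19, and in that of cell cycle genes none was measured.

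Marker genes of the cell types in a biopsy were followed in 11 lists, of which 19 genes were measured. SV2A passed and the other 18 did not, with differences of -0.83 to 0.93 and a smallest adjusted p of 0.053, for the platelet gene ITGA2B. The epithelial gene ESRP1 differed by -0.05 ± 0.16, the stromal genes DCN and LUM by -0.30 ± 0.20 and -0.67 ± 0.24, the smooth muscle gene TAGLN by 0.22 ± 0.32, the endothelial gene PECAM1 by 0.59 ± 0.21 and the leukocyte gene LAPTM5 by -0.15 ± 0.19. All 6 cleared the background on every array. Signal of epithelial, stromal, vessel and leukocyte genes was thus present in the biopsies of both days. The summed level of the 4 macrophage and dendritic cell markers, as log2 of the sum of linear levels, ran from 2.80 to 3.58 at day 12 and from 2.99 to 3.60 at day 8. That of the 2 T and NK cell markers ran from 1.86 to 4.13 and from 1.57 to 3.65. Leukocyte markers other than LAPTM5 went both ways. ITGAX differed by -0.83 ± 0.27 (adjusted p = 0.0769), CD68 by -0.25 ± 0.19 and CD2 by -0.20 ± 0.20. CD14 differed by 0.47 ± 0.26, GZMB by 0.77 ± 0.44, TPSB2 by 0.58 ± 0.72 and FCER1A by 0.20 ± 0.58. The part of cell type shares in the differences above was not tested. No B or plasma cell marker was measured.

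The same comparison between the days was made in the pregnant samples of the same mares, on the same slides. The 2 sets of arrays are therefore not independent, and equal results in both are no independent replication. In the fit of all 22 arrays the correlation between arrays of the same mare and day was 0.62. The pregnant arrays are described here beside the non-pregnant ones. The days cannot be told apart from the slides, scan days and software there either. In those arrays 9431 of 37171 probes (25.4%) and 175 of the 591 named genes (29.6%) passed. All 54 genes had the same sign as in the non-pregnant arrays, and 52 passed. The exceptions were SLC11A1, with an adjusted p of 0.120, and GPCPD1, with 0.057. Among the 537 named genes that had not passed in the non-pregnant arrays, 435 had the same sign and 123 passed. GM2A was 3.24 ± 0.38 higher at day 12 in the pregnant arrays against 1.62 ± 0.27 in the non-pregnant arrays, and HSD11B2 differed by -1.98 ± 0.22 against -1.48 ± 0.26. GAST, the named gene with the largest decrease in the non-pregnant arrays, differed by -2.90 ± 0.49 against -3.10 ± 0.54.

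Whether the difference between the days itself changed with pregnancy was tested as an interaction in 1 fit of the 22 arrays. No probe of 37169 passed in limma (0%), 4033 had an unadjusted p under 0.05, and the smallest adjusted p was 0.0876. Normexp background correction gave 5 probes, and leaving out mare 3 gave 50. Of the 54 genes, GM2A had the smallest adjusted p, 0.150, with a difference of 1.61 between the effects.

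**Figure D5:**
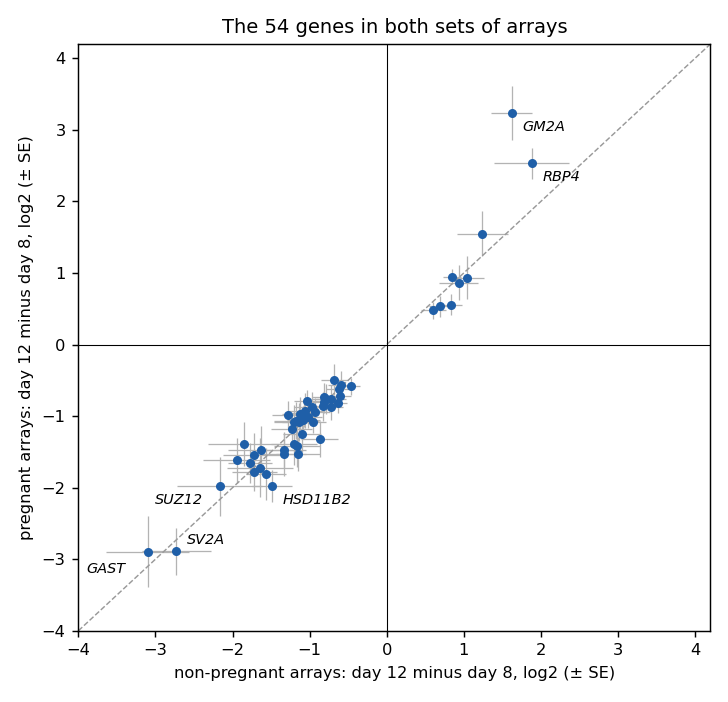
Difference between day 12 and day 8 (log2, bars for the standard error) of the 54 genes in the non-pregnant arrays (horizontal) and in the pregnant arrays of the same mares (vertical), with the dashed line where both are equal. All 54 points lie in the quadrants of equal sign, and GM2A lies farthest above the line, at 3.24 against 1.62.

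Most of the probes that passed have no gene symbol here. Of the 2936 probes, 2834 could be named by an accession only, and the accessions with at least 1 passing probe numbered 2113 of 21145. Of the 3521 accessions with 3 or more probes, 38 had all of them past the threshold and higher at day 12 and 68 had all past it and lower, while 4 accessions had passing probes in both directions. Among passing probes above background on every array, the largest decrease was in the Ensembl transcript ENSECAT00000013061, at -4.90 ± 0.75, or 29.8-fold higher at day 8. It read 5.61, 3.37, 1.30, 2.66 and 2.03 at day 8 and -3.54 to -0.35 at day 12, and all 5 of its probes passed (-4.90 to -2.51). ENSECAT00000014500 followed at -4.83 ± 0.71, with 2 of 5 probes past the threshold. The groups did not overlap in either. The largest increases were in ENSECAT00000019222, by 2.29 ± 0.48 on its single probe, and in ENSECAT00000021430, by 1.81 ± 0.28 with all 3 probes past the threshold.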

How the data were processed

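Each sample was one 1-colour array, so the number of arrays sets the precision. The deposited scanner files hold linear spot intensities. The authors extracted them with Agilent Feature Extraction. The submitters' processing notes name version 10.5.1.1, and per the file headers it read the day 12 arrays while 10.7.3.1 read the day 8 arrays. Per the file headers the processed intensities are background-subtracted, with no scaling across arrays. A value table that the authors deposited was taken as log2, because its columns rose with the log2 scanner intensity. Its medians were 7.51 to 8.80 over the 11 arrays, and no source here states its centring or normalisation. It was used in an alternative, fitted as deposited, without centring the arrays and without the filter on dim signals. The differences between array medians stayed in that fit, so its counts are not on the same footing as the main ones.

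From each spot's log2 processed intensity the 75th percentile of the array's non-control spots was subtracted. Non-uniform outliers (3 to 41 spots on an array) were dropped, and a probe's spots were averaged. No spot was saturated. A probe was kept if flagged well above background on 5 or more of the 11 arrays. RefSeq accessions matched to the assembly TB-T2T gave 1 symbol to 1394 of 43603 probes (675 genes), several to 1 and none to 42208. A gene stood by its probe with the highest mean level. No coordinates are printed, as the builds may differ.

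Differences were tested per probe in R 4.3.3 by limma 3.58.1, using lmFit with eBayes (two-sided, Benjamini-Hochberg over all probes, 0.05), on the 11 arrays without covariates. On simulated data the step recovered 67% of changes of 1.5 log2 and 94% of changes of 3, over 37022 probes. The simulated arrays were drawn independently, without a shared slide or scan day. Far fewer probes were changed in them than passed in the real arrays. Under the Benjamini-Hochberg adjustment the recovery depends on that share. In the real arrays the correlation within a block was 0.25 for slides and 0.34 for scan days, so these rates do not cover batch. The members, lists and rules were chosen with earlier results of these data known. Values per array are given for the 10 genes with the smallest p in each direction and for list members that passed; other genes past the threshold are named with a role or summarised, and a few results are not reported here. Alternatives changed the background correction (normexp, offset 50, on median spot signals, since no mean signal was in the files used), scaling, filter, blocks, prior, probe choice and the arrays included. The setting that left out both extreme arrays, and those for the pregnant arrays, were chosen after seeing the data. Equal mare numbers were not used as pairs, since the labels do not say that they mark the same animal.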

Additional observations from a re-analysis of the deposited data

Results flagged for a closer look

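The groups screened were 234, over 117 named genes and transcripts known by accession only. In 16 of these groups a single array lay so far from the rest that its gap exceeded Dixon's 95% critical value. Chance flags about 1 in 20 groups. Levels are log2 with the 75th percentile of the array at 0.

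On the day 8 array of mare 1, 9 genes stood apart. Read above the others were DENND1C at 1.33 (others -0.42 to -0.02), MSTN at 0.50 (others -0.39 to -0.19), SLC16A3 at 0.15 (others -1.35 to -1.08), the nuclear receptor NR5A1 at -3.74, the drug exporter ABCC1 at -1.84, the chemokine CCL11 at -1.80 (others -4.08 to -3.76), the smooth muscle gene TAGLN at -1.06 and the collagen gene COL2A1 at -1.95 (others -4.92 to -4.27). Annexin A1 (ANXA1) read below the others there, at 3.27. On the day 8 array of mare 4, 4 genes read lowest, namely COX6C at 4.63 (others 5.16 to 5.30), the cytochrome P450 reductase POR at 2.04, the TLR4 partner LY96 at 0.68 and the chaperone HSP90AB1 at 5.68. PRND, a prion-like protein, read lowest in mare 2 at day 8, at -2.45 (others -1.98 to -1.84). On the day 12 array of mare 3, the oestrogen sulphotransferase SULT1E1 read 4.10, above 2.17 to 2.76 in the others, and uterocalin (P19) read 6.38, below 7.31 to 7.72.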

How the results depend on the processing

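All 54 named genes kept their direction under every alternative that measured them. The 2936 probes, 54 named genes and 25 list members past the threshold became 963, 22 and 13 with the slide as a random block. With the scan day as a random block they became 263, 5 and 5. In the authors' deposited log2 table, fitted without centring the arrays, they became 282, 11 and 9. Probes numbered 1709 with normexp and 4475 with quantile normalisation. A fit of all 22 arrays gave 5323 probes and 90 named genes. Leaving out 1 array at a time gave 752 to 3495 probes, 17 to 69 named genes and 11 to 28 list members. The count of probes moved by more than 1.5 times without mare 1 (1225) or mare 4 (1718) of day 12 and without mare 4 (1565), mare 5 (770) or mare 6 (752) of day 8. Without the arrays of mare 3 of day 12 and mare 1 of day 8 together there were 2882 probes. Cell type markers past the threshold, 1 in the main setting, were 3 with quantile normalisation or median centring, 2 with the filter on all 11 arrays, with a trended robust prior, with all 22 arrays or without the 2 extreme arrays, and 1 to 3 without single arrays. The pregnant arrays gave 9431 probes, 3615 with the scan day as a block, and 5985 to 10644 without single arrays. The interaction gave 0 probes, 5 with normexp and 0 to 50 without single mares, with 1 without mare 2 and 50 without mare 3. With the shared replicate number as a block, 42 probes, 0 named genes, 0 list members and 0 markers passed; arrays sharing a number gave correlations of their deviations from the group mean of -0.154 to 0.328, over 0.1 for 4 of the 5 numbers but not for mare 2, 3 of the 5 correlated best with their own number, and the labels do not say that they mark the same animals. The causes of these changes were not tested. Dim probes give less certain differences. The slides, the scan days and the software version cannot be separated from the day by any setting. A random block does not remove a difference that all arrays of a day share.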

Other observations

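In 13 genes a probe other than the one with the highest level passed the threshold, and they were not counted. ANXA2, GPX3, PGRMC1, PLA2G2A, PTGS2 and VEGFA, described above, are 6 of them. H19, an imprinted noncoding RNA, gave -0.92 ± 0.72 on the probe that stands for it and -2.06 on its other probe. SOD2, the mitochondrial superoxide dismutase, has 9 probes with differences of 0.03 to 0.53, of which 1 passed. SPARC, a matrix protein, has 8 probes from -0.54 to 0.28, of which 1 passed, and TPM3, a tropomyosin, 4 probes from -0.83 to 0.00, of which 1 passed. For these genes the measured difference depends on the probe, and which transcript each probe reads was not tested.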
